A study of Mus musculus with 35 samples.

Results

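The regions described here lie around Ctsb on mouse chromosome 14 and around Slc11a1 and Ctdsp1 on chromosome 1, in macrophages before and after exposure to lipopolysaccharide (LPS), the endotoxin on the surface of Gram-negative bacteria. All listed regions up to 100 kb wide that overlapped chr14:63710001-63790000 (80 kb) or chr1:74410001-74460000 (50 kb), build mm9, were taken from 35 region lists. This gave 163 of 233211 regions of that width, 64 in the Ctsb window and 99 in the Slc11a1 and Ctdsp1 window. The windows had been chosen from the acetylated histone H4 (H4ac) lists, because each held a high-ranked region, up to 10 kb wide, that was listed with LPS and in neither unstimulated list. All H4ac differences between LPS and unstimulated cells below are therefore descriptions, with no test.

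The cells were macrophages cultured from the bone marrow of female wild-type C57BL/6 mice aged 8 to 12 weeks, left unstimulated or exposed to LPS. DNA bound by each of 6 targets was precipitated and sequenced (ChIP-seq). H4ac had 2 libraries each without LPS and at 60, 120 and 240 min. RNA polymerase II (Pol II) had 1 unstimulated library, 2 at 60 min, 1 at 120 min, 2 at 240 min and 1 at 360 min. The NF-κB subunit p50 had 3 unstimulated libraries and 4 at 60 min, and the subunit p65 had 1 unstimulated, 2 at 60 min and 2 at 120 min. The transcription factor ATF3 had 3 libraries at 240 min and no unstimulated one. Histone H3 trimethylated at lysine 27 (H3K27me3) had 1 library each for unstimulated cells and for 120, 240 and 480 min of LPS, and 1 from cells whose title gives 60 min of LPS and a 7 h delay. Letters name the libraries below. The labels do not say that libraries of a group came from separate animals or cultures, so the spread between them may be technical. The lists held 255 to 28522 regions each, and nothing in them gives the sequencing depth. A region absent from a list is therefore reported as not listed, not as unbound. The score of a region is the authors' own, and its rank counts from 1, the best score of its list.

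Ctsb encodes cathepsin B, a cysteine protease of lysosomes that degrades proteins taken up by the cell. Slc11a1, also called Nramp1, encodes a divalent metal transporter of the phagosome membrane that withdraws metal ions from engulfed microbes. C57BL/6 mice are known to carry a loss-of-function allele of Slc11a1, which limits these cells as a model of the transporter's function. Ctdsp1 encodes a small phosphatase that acts on the C-terminal domain of Pol II and takes part in the repression of neuronal genes, and it hosts the microRNA miR-26b. Acetylation of histone H4 marks open, active chromatin, and LPS is known to redistribute it in macrophages.

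In the order of RefSeq genes (assembly GRCm38.p6, used for names and sequences only), Slc11a1 stood between Catip and Ctdsp1, and Mir26b lay inside Ctdsp1. Ctsb stood between Gm23629 and the overlapping gene Fdft1, which encodes squalene synthase. No mm9 annotation was used here, so the regions are not assigned to an exon, intron or promoter. The mature products of miR-26b are shown because its gene lies inside Ctdsp1, which was named with the chromosome 1 window. Its position relative to the H4ac regions was not determined. Capitals mark the seed, bases 2 to 8.
mmu-miR-26b-5p: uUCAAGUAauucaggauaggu
mmu-miR-26b-3p: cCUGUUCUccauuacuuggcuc
RefSeq promoters were at hand for 2 of the 3 genes, Slc11a1 and Ctdsp1. The 250 bases before the annotated start of Ctdsp1 and the 61 bases before the first annotated start of Slc11a1 follow, 5′ to 3′ on GRCm38.p6, to set the promoters of these neighbours side by side. Capitals mark a GC box, the letters GGGCGG.
Ctdsp1: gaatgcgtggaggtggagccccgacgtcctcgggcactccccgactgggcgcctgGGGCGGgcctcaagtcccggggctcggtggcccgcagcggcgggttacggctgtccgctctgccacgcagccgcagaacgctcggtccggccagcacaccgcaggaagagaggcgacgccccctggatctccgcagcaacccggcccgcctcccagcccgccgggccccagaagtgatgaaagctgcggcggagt
Slc11a1: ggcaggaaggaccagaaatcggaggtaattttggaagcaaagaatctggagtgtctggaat
The promoter table covers 250 bases before to 50 bases after each start, and both strands were searched. The GC box occurred once in the Ctdsp1 promoter, its first base at -195 from the start, and in 35.7% of all 32851 promoters. Slc11a1 held no GC box. Its promoter held the letters GAGGAA, a core bound by the myeloid factor PU.1, once (28.3% of all promoters), at -152 from the start used in the table, which lies outside the stretch printed here. Neither promoter held TGANTCA (7.81% of promoters), TGACGTCA (1.79%), CACGTG (7.15%) or the κB consensus (8.46%). These matches describe the letters only.

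At Ctsb, H4ac was already listed before LPS, in some of the best-ranked regions of both unstimulated lists. The region of the window that ranked highest with LPS spanned chr14:63741371-63752780, 11410 bp merged across the lists. Among regions up to 10 kb, both 60 min lists and no other of the 8 H4ac lists held it. Among regions up to 100 kb, both unstimulated lists and all 6 LPS lists held it. Unstimulated list A had a region of 14770 bp there, with a score of 4.53 and rank 45 of 28522, in the best 0.158% of the list. Unstimulated list B had a region of 15260 bp with a score of 3.96 and rank 65 of 21058, in the best 0.309%. The data thus go against the view of this locus as one where acetylation appeared with LPS. What was listed only with LPS at 60 min were narrow regions in place of a wide one.

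The 60 min lists broke the wide region into pieces. List A held 6 pieces that together took in 98.3% of the 11410 bp, and list B held 5 that took in 92.9%. The best piece of list A was chr14:63746581-63750650, with a score of 5.41 and rank 25 of 23682. The best of list B was chr14:63748211-63752110, with a score of 4.45 and rank 28 of 15392. These best pieces overlapped each other, to the right of the centre of the span, and ranked among the best 0.106% and 0.182% of their lists, close to the ranks of the unstimulated regions.

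At 120 and 240 min the locus was again listed as a single wide H4ac region. At 120 min it was 15380 bp wide in list A, with a score of 3.33 and rank 1672 of 23028, and 12640 bp wide in list B, with a score of 3.73 and rank 307 of 15256. It ranked worse at this time than without LPS or at 240 min, in both lists. At 240 min it was 14380 bp in list A (5.17, rank 57 of 27235) and 13300 bp in list B (4.81, rank 38 of 17894). Across the 6 lists without fragments, 2 unstimulated and 4 with LPS, the left edge lay within 1200 bp and the right edge within 3250 bp.

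The bases that both unstimulated wide regions shared, chr14:63741051-63755410 (14.4 kb), remained mostly listed at every time. LPS lists covered 95.2% and 75.4% of it at 60 min, 100% and 95.3% at 120 min, and 99.2% and 92.6% at 240 min (lists A and B). All 6 LPS lists held 72.5% of these bases. No base of the stretch was missing from every LPS list.

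Both sides of this stretch carried low-ranked H4ac regions with and without LPS, and these were wider with LPS. Without LPS the left side held a region of 18710 bp in list A (chr14:63720801-63739510, rank 18398 of 28522) and 18440 bp in list B (rank 11138 of 21058). The right side held regions up to 7290 bp in list A, ending at chr14:63768770, and 1 of 9660 bp in list B, ending at chr14:63765070. Among regions over 40 kb, a region of 46.4 to 47.2 kb, starting outside the window and ending at chr14:63740200 to 63740910, was in 5 of 6 LPS lists (not in list B of 240 min) and in neither unstimulated list. On the other side a region of 43.6 to 63.2 kb, ending between chr14:63814400 and 63819370, was in all 6 LPS lists and in neither unstimulated list. Ranks of these regions over 40 kb lay between the best 31.4% and the lowest 97.4% of their lists. In unstimulated list A, a region of 439 kb, wider than the limit used here, spanned the whole window. Of the LPS lists, 5 of 6 (all but list A of 60 min) also had a region wider than the limit over the window, among them regions of 360 and 362 kb in lists A and B of 240 min.

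With these flanks counted, the share of the Ctsb window in listed H4ac regions was higher with LPS. The unstimulated lists covered 57.1% and 54.2% of the window (55.6% ± 2.03, SD, n = 2). At 60 min they covered 93.4% and 94.9% (94.2% ± 1.06, SD, n = 2), at 120 min 100% and 98.1% (99.1% ± 1.33, SD, n = 2), and at 240 min 98.8% and 60.5% (79.7% ± 27.1, SD, n = 2). All LPS lists lay above both unstimulated lists, list B of 240 min by the least. The difference at 60 min was 38.5 percentage points. It fell to 19.6 points with regions of every width, and with only the better-scored 50% of each list it was -11.3 points, LPS below unstimulated.

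A smaller H4ac region near chr14:63721491-63723570 ranked better before LPS. Unstimulated lists A and B placed it at rank 2178 of 28522 (score 3.13) and 672 of 21058 (3.09). With LPS, list A had it at rank 8712 of 23682 at 60 min, 15943 of 23028 at 120 min and 8456 of 27235 at 240 min. List B had it at 240 min only, at rank 14261 of 17894, while its 60 and 120 min lists held no narrow region there, only the wide flank. In percent of the list, the ranks were 7.64% and 3.19% without LPS and 31% to 79.7% in the 4 LPS lists that had it.

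Pol II occupied a broad domain at Ctsb in every library, listed as a single region in 6 of 7 lists and in 4 pieces in list B of 240 min. Unstimulated list A placed chr14:63740861-63770010 at rank 39 of 7436 (score 5.94). The 60 min lists had regions of 32570 bp (4.78, rank 161 of 5519) and 30880 bp (4.68, rank 221 of 6061), and the 120 min list had 30690 bp (3.26, rank 536 of 4559). At 240 min, list A had 30240 bp (5.53, rank 86 of 5144). The best of the 4 pieces of list B was at rank 113 of 7728 (5.59). At 360 min the region was 31920 bp wide (4.92, rank 40 of 2948). Left edges lay within 1940 bp of each other across the 7 lists, and so did right edges. Pol II covered 36.4% of the window without LPS and 37% to 40.7% with LPS, so its extent hardly moved while its rank was lowest at 120 min, the time at which H4ac also ranked lowest. The single unstimulated Pol II library gives no spread to test against.

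Among regions up to 100 kb, ATF3 was listed at Ctsb in 2 of 3 libraries at 240 min, inside the H4ac and Pol II regions. List A had a region at chr14:63747811-63748150 (score 1.32, rank 730 of 3954), within a wider one of 3680 bp, and another of 230 bp at the far end of that one. List C had chr14:63747801-63748000, near the bottom of its list (0.074, rank 2397 of 2604), and list B had none up to 100 kb. The regions of lists A and C began 10 bp apart. No unstimulated ATF3 library was analysed here, so no comparison with resting cells was possible. No p50, p65 or H3K27me3 list held a region up to 100 kb in the Ctsb window (0 of 7, 0 of 5 and 0 of 5 lists). A region wider than that overlapped the window in 7 of 7 p50 lists and 4 of 5 p65 lists, with and without LPS, and in no H3K27me3 list. ATF3 also had such wider regions over the window, 2 in list A and 1 each in lists B and C.

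On chromosome 1 the same change of width was seen within the limit of 100 kb, and it was kept at all 3 times. The top-ranked H4ac region with LPS spanned chr1:74441911-74443270, 1360 bp. Among regions up to 10 kb, all 6 LPS lists and neither unstimulated list held it. Among regions up to 100 kb, both unstimulated lists held it, within regions of 11710 bp in list A (chr1:74433141-74444850, score 3.75, rank 548 of 28522) and 11770 bp in list B (chr1:74433151-74444920, 2.80, rank 1179 of 21058). Here too acetylation was listed before LPS, in the best 1.92% and 5.6% of the lists.

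With LPS, among regions up to 100 kb, a narrow peak of H4ac stood in its place. As a share of the list, its rank was better than both unstimulated values in 5 of 6 lists. At 60 min it measured 1300 bp in list A (score 4.21, rank 310 of 23682, best 1.31%) and 1190 bp in list B (3.47, rank 349 of 15392, best 2.27%). At 120 min it ranked 145 of 23028 in list A (4.69) and 128 of 15256 in list B (4.15). At 240 min it ranked 71 of 27235 in list A (5.11) and 110 of 17894 in list B (4.45). The 2.27% of list B at 60 min lay between the unstimulated values.

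**Figure D1:**
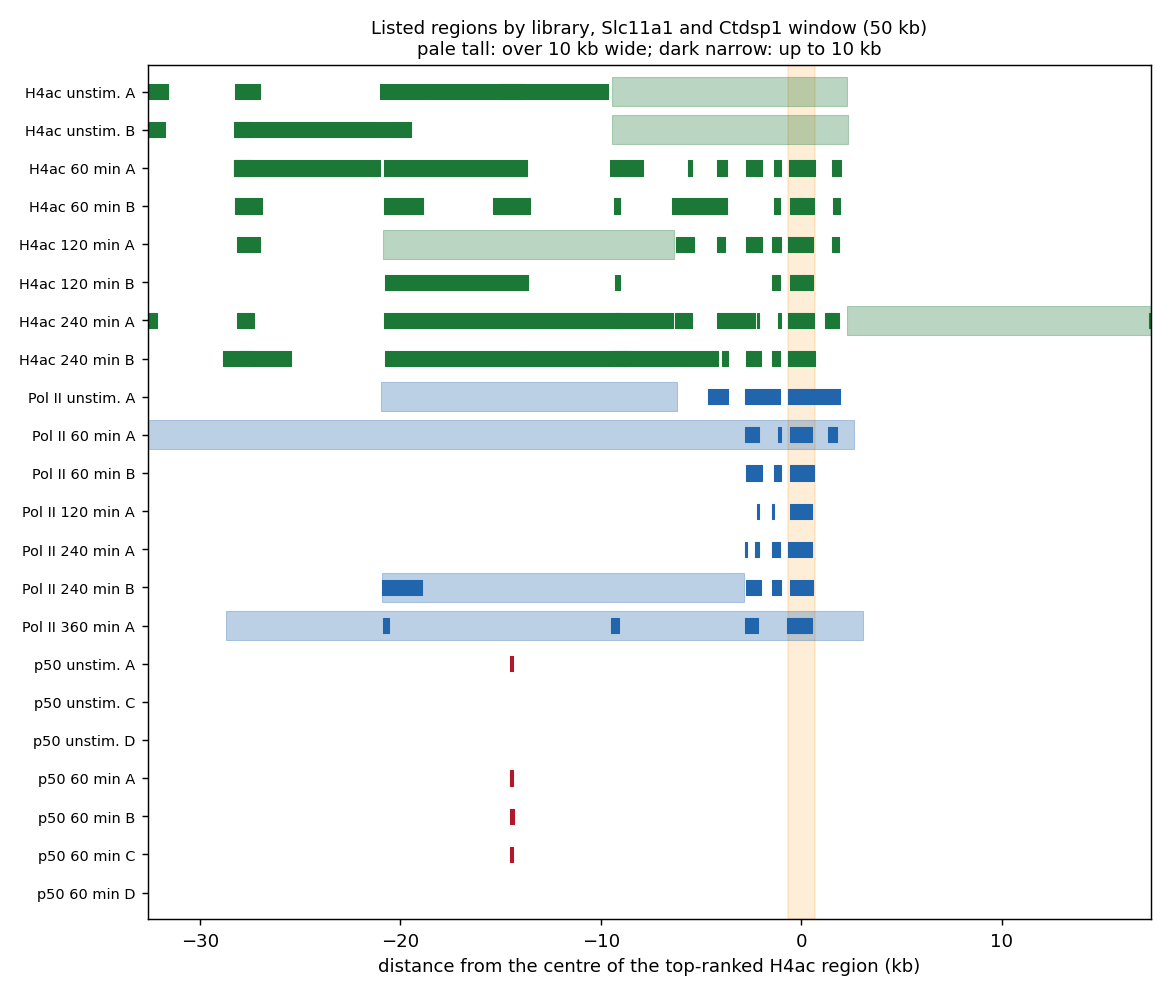
Listed regions up to 100 kb in the Slc11a1 and Ctdsp1 window, 1 row per library; the horizontal axis is the distance in kb from the centre of the top-ranked H4ac region, which is shaded. Pale tall bars are regions over 10 kb wide and dark narrow bars regions up to 10 kb. Over the shaded region, the wide bar of both unstimulated H4ac rows gives way to narrow bars in the 6 LPS rows. The p50 site lies to the left, in 3 of 4 LPS rows and 1 of 3 unstimulated rows.

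Among regions up to 100 kb, the stretch shared by both unstimulated regions, chr1:74433151-74444850 (11.7 kb), was only partly listed with LPS. At 60 min 43.9% and 42.5% of it was listed (lists A and B), at 120 min 61.7% and 15.2%, and at 240 min 68.4% and 69.1%. These pieces numbered 3 to 10 per list. Bases that no LPS list held in such regions added up to 1630 bp, or 13.9% of the stretch. They lay in 4 gaps of 260 to 530 bp. Of these, 330 bp and 510 bp lay directly on either side of the top-ranked region, at chr1:74441581-74441910 and chr1:74443271-74443780. All 6 LPS lists held 1470 bp of the stretch. At Ctsb no base of the stretch was missing from all LPS lists. On chromosome 1, H4ac regions wider than 100 kb overlapped the window in unstimulated list B, both 60 min lists and list B of 120 min. Among them, a region of 172 kb in list A of 60 min (chr1:74272871-74444710, rank 5830 of 23682) held both gaps beside the top-ranked region.

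**Figure D2:**
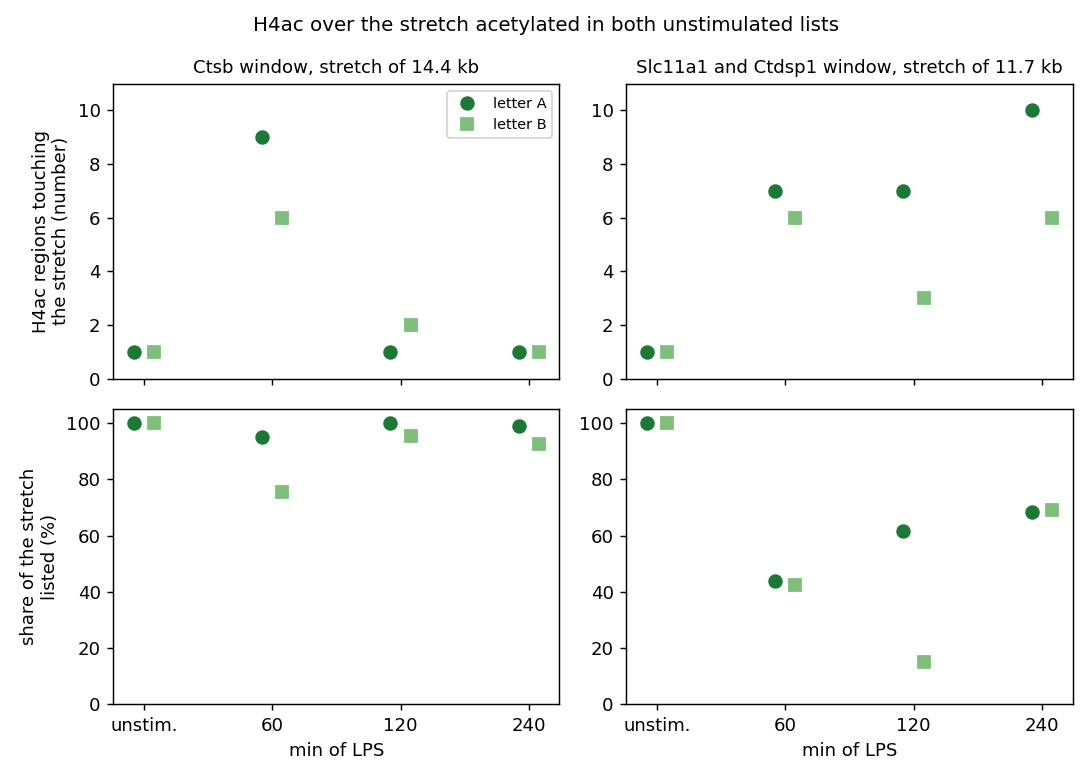
Number of H4ac regions touching the stretch that both unstimulated lists held (top) and share of that stretch listed in percent (bottom), by min of LPS, for the Ctsb window (left) and the Slc11a1 and Ctdsp1 window (right); circles are lists A and squares lists B. Ctsb has 9 and 6 regions at 60 min and 1 or 2 at later times, while the chromosome 1 stretch has 3 to 10 at every time with LPS. Only regions up to 100 kb are counted.

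Pol II lay on the same narrow peak, with nearly the same edges. In all 6 LPS lists the best-ranked Pol II region there began between 74441901 and 74442031 and ended between 74443120 and 74443230. The H4ac peak began between 74441911 and 74442031 and ended between 74443150 and 74443270. Without LPS the best-ranked Pol II region was wider, 2590 bp from the same start (score 3.72, rank 250 of 7436, best 3.36%). With LPS it was 1110 to 1220 bp wide and ranked 117 of 5519 and 86 of 6061 at 60 min, 116 of 4559 at 120 min, 67 of 7728 in list B of 240 min, and 84 of 2948 at 360 min. List A of 240 min placed it in the best 2.04%. All 6 shares of the list, 0.867% to 2.85%, were smaller than the unstimulated 3.36%, a difference from a single control library. Wider Pol II regions of lower rank also covered the peak with LPS. They measured 93670 bp in list A of 60 min (rank 3185 of 5519) and 31730 bp at 360 min (rank 746 of 2948). Regions over 100 kb covered it in both 60 min lists, the 120 min list and list A of 240 min.

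2 further H4ac regions up to 10 kb were held with LPS by both lists of a time and by neither unstimulated list, and both flanked the peak. The region chr1:74441141-74441580 was in all 6 LPS lists, ranked from 50.2% to 90.1% down the lists. The region chr1:74443781-74444590 was in 4 LPS lists, with both lists at 60 min only. Both lay inside the unstimulated wide regions. Moving the other way, chr1:74409521-74411020, at the left border of the window, was in both unstimulated lists (rank 12340 of 28522 and 11816 of 21058). It was absent at 60 and 120 min and in list A alone at 240 min (rank 22589 of 27235). This held among regions up to 10 kb and up to 100 kb, but not without a width limit. In list A of 60 min, a region of 172 kb (chr1:74272871-74444710, rank 5830 of 23682) held these bases. List B of 60 min also had a region wider than 100 kb over the window.

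To the left, a region starting near chr1:74421571 was listed in all 8 H4ac lists. Without LPS it was 2200 bp (rank 2454 of 28522) and 1350 bp (rank 1035 of 21058) wide. With LPS it reached 7120 bp and 1940 bp at 60 min, 14520 bp and 7130 bp at 120 min, and 7260 bp and 7060 bp at 240 min, so that 5 of 6 LPS regions were more than 7 kb wide. In unstimulated list A a separate region of 9160 bp and low score (0.482, rank 22582) adjoined it. Among regions up to 100 kb, the neighbouring ground was therefore listed in 1 of the 2 unstimulated lists as well. The other, list B, had an H4ac region wider than 100 kb over the window.

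A p50 site lay in this left part, at chr1:74428071-74428270, 13641 bp before the top-ranked H4ac region. It was listed in unstimulated library A (score 0.804, rank 204 of 424) and not in C or D. With 60 min of LPS it was in library A (2.78, rank 206 of 1378), B (3.25, rank 171 of 1118) and C (1.25, rank 553 of 1253), and not in D. Thus 3 of 4 LPS libraries and 1 of 3 unstimulated libraries held it. The share of the window in p50 regions was 0.08% ± 0.139 (SD, n = 3) without LPS and 0.21% ± 0.157 (SD, n = 4) with LPS. The difference of 0.13 percentage points was smaller than the SD of either group. An exact two-sided permutation test gave p = 0.571, where the smallest p that 3 against 4 libraries can give is 0.0571. That smallest p is above the threshold of 0.05, so this test could not have called a difference of any size. p50 was not used in the choice of the windows.

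At the p50 site, H4ac regions up to 100 kb were listed in all 6 LPS lists and in unstimulated list A (1370 bp, rank 18405 of 28522). Unstimulated list B had an H4ac region wider than 100 kb over the window, so the site is not shown to lack H4ac there. No p65 list (0 of 5), ATF3 list (0 of 3) or H3K27me3 list (0 of 5) held a region up to 100 kb in the window. p65 and H3K27me3 each had 2 regions wider than that over the window, of 937 to 1660 kb.

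With LPS, the share of the Slc11a1 and Ctdsp1 window in H4ac regions up to 100 kb was lower at 60 and 120 min, in all 4 lists. At 240 min it was higher on average. It was 50.7% and 42.8% without LPS (46.8% ± 5.59, SD, n = 2). With LPS it was 39.3% and 20.2% at 60 min, 39.6% and 17.8% at 120 min, and 71.6% and 45.5% at 240 min (39% ± 19.5 over all 6, SD). The mean difference was -17 percentage points at 60 min, -18.1 at 120 min and 11.8 at 240 min. At 240 min list B (45.5%) lay between the unstimulated lists. With regions up to 10 kb the 60 min difference was 6.5 points, LPS above unstimulated, and with list A of 240 min left out the 240 min one was -1.21. Over all LPS lists, which pools these opposite directions, the difference was -7.74 points, and 5.88 with regions up to 10 kb. With regions of every width the differences were 24.7 points at 60 min, -31.3 at 120 min and -16.8 at 240 min. Pol II covered 40.2% of the window without LPS and 2.76% to 70.4% with LPS. That range came from wide regions of low score, such as one of 93670 bp in list A of 60 min (score 0.781, rank 3185 of 5519), which stood just inside the width limit. The counterpart in list B, 107980 bp wide (1.10, rank 2991 of 6061), stood just outside.

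**Figure D3:**
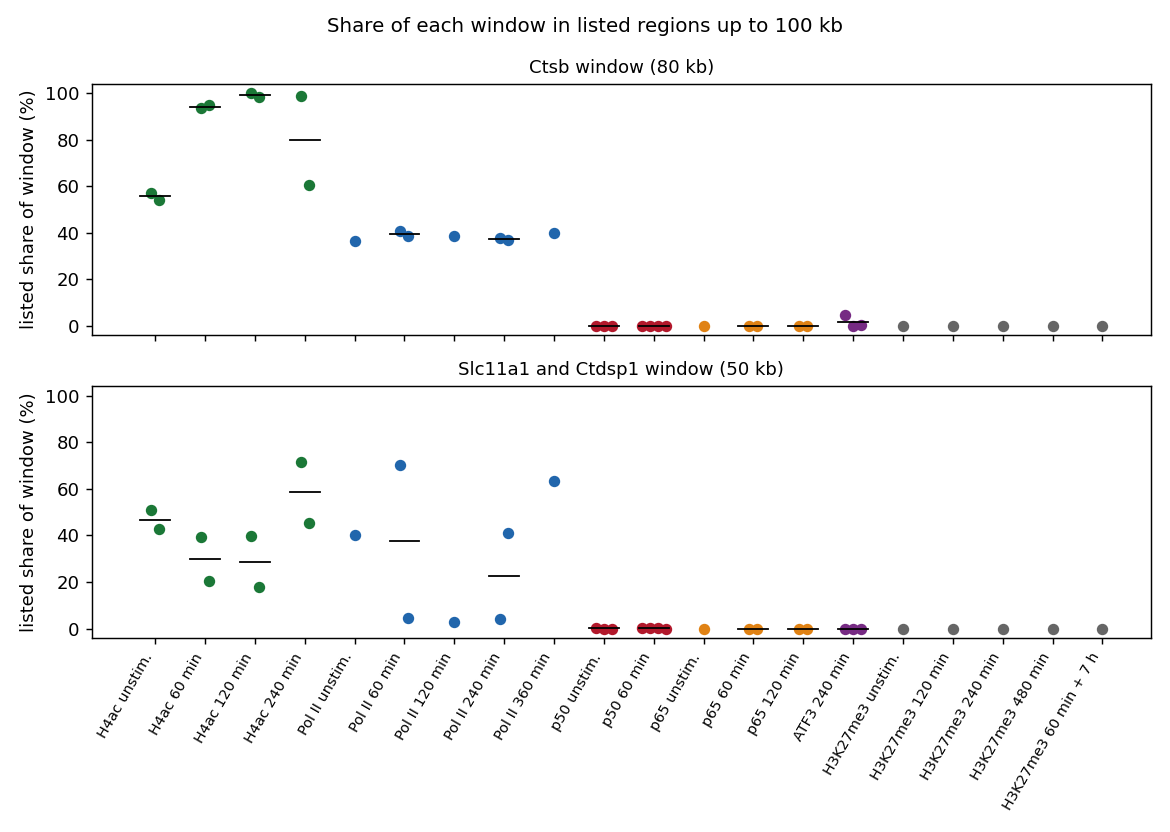
Share of each window, in percent, in listed regions up to 100 kb, for the Ctsb window (top) and the Slc11a1 and Ctdsp1 window (bottom); each point is 1 library and lines are group means where a group has more than 1. H4ac at Ctsb lies at 54.2% to 57.1% without LPS and 60.5% to 100% with it, while on chromosome 1 the LPS points spread from 17.8% to 71.6% around the unstimulated ones.

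Both loci belong to a group of calls found across the genome. With regions up to 10 kb, 24406 merged H4ac regions were tested, and 659 (2.70%) were gained at 60 min, 939 (3.85%) at 120 min and 1360 (5.57%) at 240 min, where gained means held by both lists of a time and neither unstimulated list. In the windows 1 of 6 merged regions was gained at Ctsb and 3 of 6 on chromosome 1. The choice of windows required at least 1 such region in each, so these counts are descriptions only. With regions up to 100 kb, 12139 were tested, and 200 (1.65%), 303 (2.50%) and 459 (3.78%) were gained at the same times. The windows then held 1 merged region at Ctsb and 2 on chromosome 1, and none of them was gained. Of the 659 calls at 60 min, 149 (22.6%) touched a region of 10 to 100 kb in both unstimulated lists, as those at Ctsb and on chromosome 1 did, and 228 (34.6%) in at least 1. At 120 min 157 of 939 (16.7%) and at 240 min 219 of 1360 (16.1%) touched such a region in both. Of 3118 regions lost at 60 min under the same limit, 507 (16.3%) touched a wide region in both 60 min lists and 1076 (34.5%) in at least 1.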

How the data were processed

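Per the labels' protocols, chromatin fixed with formaldehyde was sheared by sonication, immunoprecipitated and read as single-end Illumina sequence. The authors deposited 1 list per library, without a header, of nested regions with a score each. The score is the authors' own, as deposited, and was used only to rank regions within a list. Build mm9 is named in the submitters' processing notes. What aligned the reads or called the regions is not given in the sources used here. No read counts were at hand, so depth is unknown. Coordinates are 1-based.

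Regions up to 100 kb that overlapped a window by at least 1 bp were members. For gains, H4ac regions were merged across 8 lists at 1 bp of overlap. The share of a window is the percent of its bases in the union of members, and p50 shares were compared by an exact two-sided permutation test (SciPy 1.17.1, Python 3.11.15, threshold 0.05). No 2 lists were identical. The calling code was tested on simulated lists. Windows and genes were chosen with earlier results of these data known. Ctsb, Slc11a1 and Ctdsp1 and their neighbours in the RefSeq table were named, with the best-ranked region of each target and each H4ac region gained. The shared unstimulated stretches, the flanks, the counts of lists per width limit and the smaller regions near chr14:63721491, chr1:74421571 and the p50 site were chosen after their values were seen. Lists of lysosomal genes and macrophage markers needed an mm9 annotation and were not used, so the cell type was not checked.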

Additional observations from a re-analysis of the deposited data

How the results depend on the processing

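Differences are percentage points of a window, LPS minus unstimulated. At Ctsb the 60 min H4ac difference of 38.5 was 6.5 with regions up to 10 kb, 1.86 up to 1 kb, 19.6 with every width, 13.9 with regions at least 50% inside the window -11.3 with each list's better-scored 50%, and 37.1 to 40 when a library was left out. That at 120 min (43.4) was -9.06 up to 10 kb, -8.52 with the better-scored 50%, 22.9 with every width and 0 up to 1 kb. That at 240 min (24) was -6.58 up to 10 kb, 0 up to 1 kb, 10.4 with regions at least 50% inside, and 4.82 and 43.2 without list A or B of 240 min. On chromosome 1 the H4ac difference over all LPS lists (-7.74) was 5.88 up to 10 kb and 4.26 up to 1 kb, and -14.3 to -3.5 when a library was left out. There the 60 min difference (-17) was 6.5 up to 10 kb, 4.01 up to 1 kb, 24.7 with every width, and -26.6 and -7.41 without list A or B of 60 min. The 120 min one (-18.1) was 2.79 up to 1 kb, -9.09 up to 10 kb, -31.3 with every width, -4.88 with the better-scored 50%, and -28.9 and -7.17 without list A or B of 120 min. The 240 min one (11.8) was 20.2 up to 10 kb, 5.97 up to 1 kb, 5.32 with the better-scored 50%, -16.8 with every width, -3.31 with regions at least 50% inside, and -1.21 to 24.8 when a library was left out, lowest without list A of 240 min. Pol II on chromosome 1 at 60 min (-2.6) was 0.42 up to 1 kb, 59.8 with every width, and -35.4 and 30.2 without list A or B of 60 min, and at 240 min (-17.8) was 30.2 with every width, and 0.64 and -36.3 without list A or B of 240 min.

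Counts of lists that held the top-ranked regions were tried at other widths after seeing the data. Unstimulated lists fell from 2 to 0 at 10 kb and at 1 kb in both windows, since their regions there exceed 10 kb. LPS lists fell from 6 to 2 at Ctsb under both limits, and from 6 to 0 at 1 kb on chromosome 1. With the letter as a replicate block, the H4ac differences stayed at 38.5 and -7.74, and the p50 difference on chromosome 1 was 0.0733 (exact sign-flip permutation test over 3 letters, p = 1, smallest possible 0.25), against 0.13 without it. It was 0.0733 to 0.21 when a library was left out. At Ctsb p50 was 0 in both groups under every setting up to 100 kb. Deviations of same-lettered p50 lists correlated at 0.062 (A), 0.019 (C) and 0.226 (D) over 2478 merged regions. Lists of different letters correlated at -0.139 to 0.057, so A and D lay above all such pairs and C among them. The main comparison did not pair the libraries by letter, and these values do not settle whether the letters mark pairs. Depth is unknown, so an unlisted region sets no limit on binding.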
